A study of Mus musculus with 8 samples.

Results

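The epithelial to mesenchymal switch genes described here are the cadherins Cdh1 and Cdh2, the matrix and filament genes Fn1 and Vim, the repressors Snai1, Snai2, Twist1, Zeb1 and Zeb2, and the repressor Ovol2. They were chosen by name as 10 of the 18193 genes that have a probe set with 1 gene symbol, and all of their 22 probe sets with 1 symbol are described, of 34945 on the array. The cells were Dlk-positive hepatoblasts, fetal liver precursors that can become hepatocytes or bile duct cells, of Ink4a-Arf-null genotype and embryonic day 14.5. The deletion is shared by the cells of all 8 arrays. The 4 arrays labelled control come from cells transduced with EGFP and the 4 labelled Bmi1 from cells transduced with Bmi1, a member of Polycomb repressive complex 1, each numbered 1 to 4 and each from day 28 of culture with HGF (50 ng/ml) and EGF (20 ng/ml). Cells were sorted with magnetic beads before transduction and by flow cytometry on day 28. Neither the vector nor its promoter is named in the labels.

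In an epithelium, E-cadherin (Cdh1) joins neighbouring cells. Zinc finger repressors of the Snail and Zeb families, and the helix-loop-helix factor Twist1, bind E-box motifs and silence Cdh1 and other epithelial genes while cells take on vimentin filaments, N-cadherin (Cdh2) and a fibronectin matrix. Ovol2 is a zinc finger factor that represses Zeb1 and holds the epithelial state. Liver is a special case, because hepatocytes normally carry both E-cadherin and N-cadherin and secrete plasma fibronectin, so Cdh2 and Fn1 are not markers of mesenchyme there.

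The E-box that Snail and Zeb proteins recognise was searched as CAGGTG or CACCTG, one being the other read on the opposite strand, in the 250 bases before annotated gene starts (RefSeq, GRCm38.p6). Of the members, 5 had an entry, which were Vim, Zeb2, Ovol2, Snai1 and Twist1, and the motif was found in Snai1. It was found in 19.4% of all 27025 genes with an entry, in 15 of 26 (57.7%) genes of a list of epithelial genes, in 0 of 19 of a list of mesenchymal genes and in 0 of 26 of a list of regulators and signals, the lists described below. A gene with several starts had more bases searched. The sequences show the motif in capitals, 5′ to 3′ on the strand of the gene, for the member that holds it, and for Epcam and Spint1, epithelial genes that rose with Cdh1 in the paired model (below) and of which one holds the motif and the other does not.
Snai1 (chr2:167537945-167538194, plus strand): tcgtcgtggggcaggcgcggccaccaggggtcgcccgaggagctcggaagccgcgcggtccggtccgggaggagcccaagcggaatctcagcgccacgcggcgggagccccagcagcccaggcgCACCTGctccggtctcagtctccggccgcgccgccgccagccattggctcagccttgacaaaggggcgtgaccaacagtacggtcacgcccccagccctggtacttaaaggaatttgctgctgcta
Epcam (chr17:87635729-87635978, plus strand): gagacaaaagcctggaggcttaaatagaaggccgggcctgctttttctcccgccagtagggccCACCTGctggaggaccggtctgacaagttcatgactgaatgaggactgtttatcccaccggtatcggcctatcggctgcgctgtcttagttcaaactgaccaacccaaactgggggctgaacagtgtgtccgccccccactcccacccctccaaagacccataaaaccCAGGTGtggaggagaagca
Spint1 (chr2:119237110-119237359, plus strand): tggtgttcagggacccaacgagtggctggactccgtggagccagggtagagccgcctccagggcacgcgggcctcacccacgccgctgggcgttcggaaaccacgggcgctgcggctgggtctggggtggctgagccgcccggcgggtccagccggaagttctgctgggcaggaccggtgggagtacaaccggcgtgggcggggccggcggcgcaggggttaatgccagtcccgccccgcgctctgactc
The match starts 126 bases before the start of Snai1. In Epcam the matches start 187 and 19 bases before, and the Spint1 window holds 0. Ocln, which also rose in the paired model and had an entry, held 2 matches before an annotated start and 0 before another. Of these 3 epithelial genes 2 thus held the motif. A match is a run of letters and not a measured binding site.

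Values are array signal intensities on the linear scale, and differences are log2 values of arrays labelled Bmi1 minus arrays labelled control. Bmi1 itself, the introduced gene, was not brighter in the arrays labelled Bmi1. The brighter of its probe sets had a mean signal of 518 ± 218 under the control label and of 279 ± 60.01 under the Bmi1 label (SD, n = 4 each), lower in 4 of 4 pairs of the same number. The log2 difference was -0.89 (SE 0.32, limma adjusted p = 0.461, and 0.0248 when pairs were blocked). Without the positions of the probes it is not known whether they read the introduced sequence, so the value does not settle the labels, and every direction below is a direction between labels. Background on an array was set at the 95th percentile of the 27 Bacillus spike-in control probe sets, and lay between 4.09 and 9.97. Arrays of replicates 1 and 2 differed from those of 3 and 4 in 2651 of 10916 genes tested (24.3%), and each of these sets holds both groups equally. All 7 measured hepatoblast and hepatocyte markers were above background on all 8 arrays. The summed signal of 14 fibroblast and stellate cell markers ran from 1893 to 12324 in the arrays labelled control and from 1289 to 5064 in those labelled Bmi1. It was highest on control 1, and the 3 other control arrays reached 5780. The sum is mostly Acta2, collagens and Dcn, except on Bmi1 3, where Reln (689) was the largest part and Acta2 read 514. Reln, of the same list, went the other way, with a log2 difference of 1.55 (SE 0.53), higher in 4 of 4 pairs (limma adjusted p = 0.408, and 0.00761 when pairs were blocked), and Thy1 had mean signals of 9.97 under the control label and 23.9 under the Bmi1 label.

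Of the 10 members, 7 passed the level filter of the gene test, which left out the genes whose mean level lay below the 40th percentile. Snai1, Twist1 and Ovol2 fell under it. In limma without a block 0 of the 7 passed at an adjusted p of 0.05, against 0.165% of all 10916 tested genes (0.11% higher and 0.055% lower), and 1 had an unadjusted p under 0.05, as had 7.81% of all tested genes. Of the 22 probe sets 0 passed, against 0.00888% of all 45037, and 1 had an unadjusted p under 0.05, as had 4.79% of all probe sets. With the replicate number as a block 1 member passed, Cdh1, against 3.33% of all tested genes (1.36% higher and 1.96% lower), and 4 had an unadjusted p under 0.05, as had 18.0% of all tested genes. Of the 7, 1 had a higher mean in the arrays labelled Bmi1 and 6 a lower one, with a median log2 difference of -0.20 beside -0.03 for all tested genes.

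**Figure D1:**
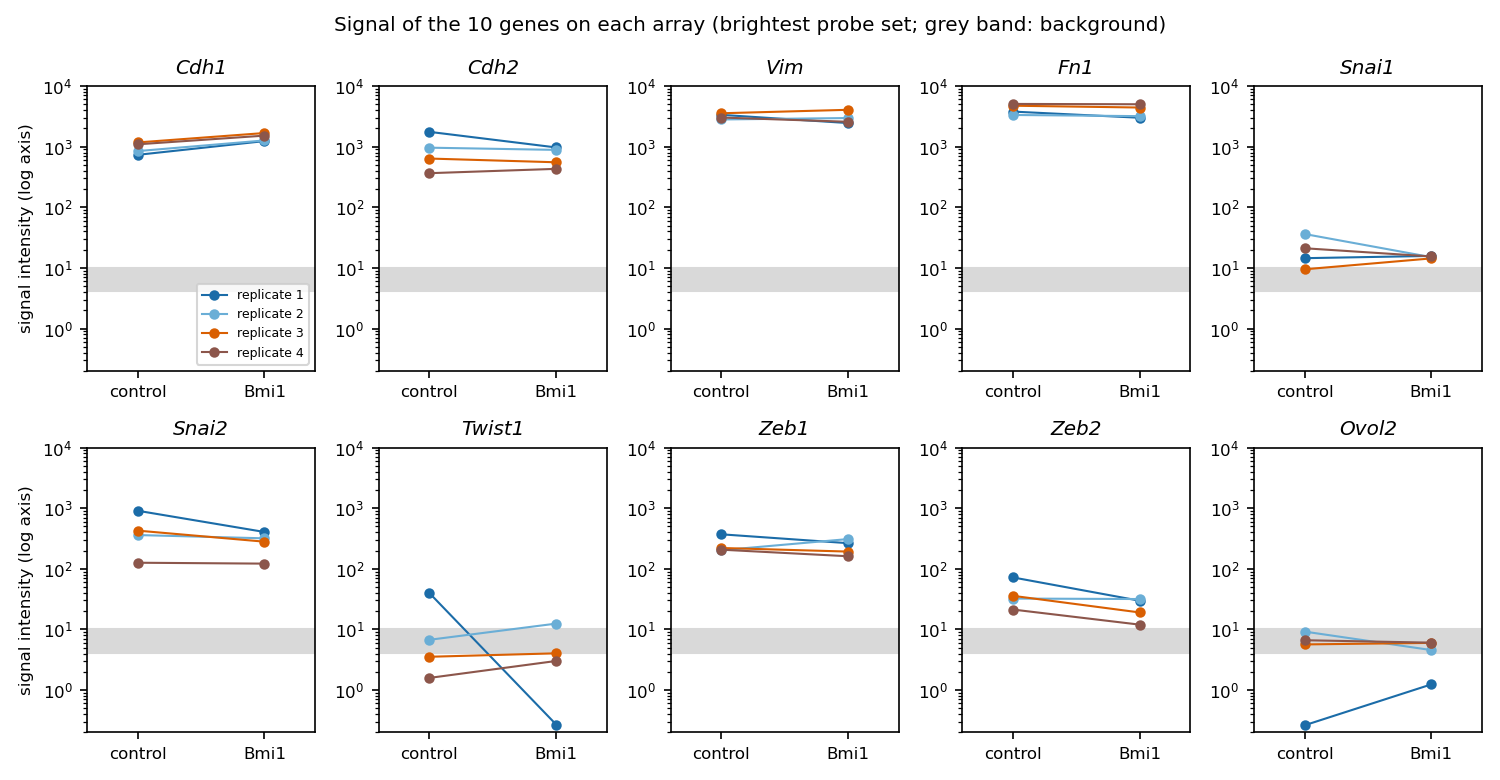
Signal intensity (log axis) of the brightest probe set of each of the 10 genes on the 4 control and 4 Bmi1 arrays, with lines joining arrays of the same replicate number and a grey band for the range of array backgrounds, 4.09 to 9.97. Cdh1 is higher on every Bmi1 array than on every control array, while Twist1 and Ovol2 lie mostly in or under the band.

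Cdh1, the adhesion molecule that defines the epithelial side, was higher in the arrays labelled Bmi1. Control arrays 1 to 4 read 733, 844, 1172 and 1093, and Bmi1 arrays 1 to 4 read 1234, 1266, 1676 and 1519. The lowest Bmi1 array was above the highest control array, so the groups did not overlap, as was so for 5.33% of all tested genes. Among the 22 probe sets it was the 1 without overlap, against 3.36% of all probe sets. The means were 960.4 ± 206 and 1424 ± 211 (SD, n = 4 each), which is 0.51 on the log2 scale (SE 0.15), or 1.42-fold. It missed the threshold in limma without a block (adjusted p = 0.31) and rose in the paired fit, where the SE was 0.088 and the adjusted p 0.0255. Higher in 4 of 4 pairs, the signal ratio of Bmi1 to control was 1.68, 1.499, 1.43 and 1.39 in pairs 1 to 4. Such agreement in 4 of 4 pairs upward was seen for 11.4% of all tested genes.

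The size of the Cdh1 difference was similar in both sets of replicates, 0.58 within replicates 1 and 2 and 0.44 within replicates 3 and 4, with adjusted p of 0.475 and 0.385 in limma. Without control 1, the array richest in fibroblast markers, it was 0.41, and with the replicate block and without pair 1 it was 0.46 (limma adjusted p = 0.0539). Leaving out any other pair also ended the call with the block, at adjusted p of 0.0767 to 0.114. In the fit of all 45037 probe sets, where 0.739% were called with the replicate block (0.313% higher and 0.426% lower), the Cdh1 probe set had an adjusted p of 0.0576.

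Cdh2, which encodes N-cadherin, varied more among arrays of 1 group than between the groups. Its brighter probe set read 1752, 961, 636 and 365 on control arrays 1 to 4 and 969.7, 884, 552 and 429.98 on Bmi1 arrays 1 to 4. Control 1 held the highest value and control 4 the lowest, so the Bmi1 arrays lay inside the range of the controls. The log2 difference was -0.31 (SE 0.48, limma adjusted p = 0.973, and 0.405 when pairs were blocked). It turned to 0.10 when control 1 was left out and to 0.17 with array weights. The other Cdh2 probe set was lower in 4 of 4 pairs, at 649, 397, 448 and 268 against 425, 369.6, 358 and 220.3, with a log2 difference of -0.40 (SE 0.30 without the block and 0.12 with it). It did not pass in limma over all probe sets (adjusted p = 0.247 with the replicate block). Cdh2 also differed between the sets of replicates, with a log2 difference of -1.27 for replicates 3 and 4 minus 1 and 2 (limma adjusted p = 0.00886), in a comparison that called 24.3% of all tested genes. Fn1 (0.44, adjusted p = 0.00778) and Cdh1 (0.34, adjusted p = 0.0287) were called there too, both higher in replicates 3 and 4. The dimmer Fn1 probe set went the other way, reading lower in replicates 3 and 4 in both groups, and the called one is a near constant share of the array maximum (below). The group difference itself was called as unlike between the sets of replicates (interaction term in limma) for 0 of 7 members and 0% of all tested genes, with 0 members and 301 genes at an unadjusted p under 0.05.

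The log2 ratio of Cdh1 to Cdh2 signal on the same array, which array scaling cannot move, was higher on the Bmi1 array in each of the 4 pairs. It read -1.25, -0.19, 0.88 and 1.57 on control arrays 1 to 4 and 0.35, 0.52, 1.60 and 1.81 on Bmi1 arrays 1 to 4. The rises within pairs were 1.60, 0.70, 0.72 and 0.24, while the groups overlapped widely. Means were 0.25 ± 1.24 and 1.07 ± 0.74 (SD, n = 4 each), and the mean difference of 0.82 fell to 0.31 without control 1. As a score over 2 members it carries no test, and because probes differ in brightness its level does not say which cadherin was more abundant.

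**Figure D2:**
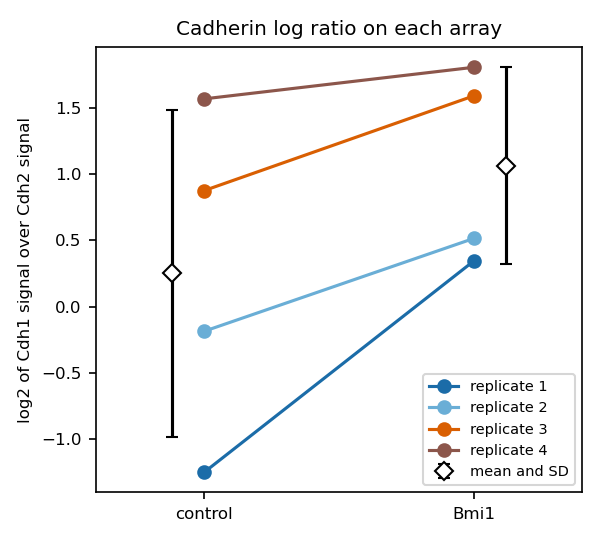
Log2 of Cdh1 signal over Cdh2 signal on each array, with lines joining arrays of the same replicate number and diamonds with bars for the mean and SD of each group of 4. Every line rises, by 0.24 to 1.60, and the spread of the controls, SD 1.24, exceeds the difference between the means, 0.82.

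Vim and Fn1, the filament and matrix genes, each had a probe set near the top of the array, at the 99.5th and 99.8th percentile of mean level over all probe sets. Vimentin is the intermediate filament protein of mesenchymal cells. The brightest Vim probe set read 3345, 2805, 3550 and 3020 on control arrays 1 to 4 and 2450, 2962, 4048 and 2571 on Bmi1 arrays 1 to 4. Bmi1 arrays held both the highest and the lowest value. The log2 difference was -0.18 (SE 0.15, limma adjusted p = 0.941, and 0.461 when pairs were blocked), and the other Vim probe sets gave -0.18 and -0.20. In the signal as deposited all 3 were lower in pairs 1 and 4 and higher in pairs 2 and 3.

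Fibronectin, the product of Fn1, is made by hepatocytes as well as by fibroblasts. The brighter Fn1 probe set read 3784, 3328, 4730 and 5063 on control arrays 1 to 4, and 2996, 3183, 4415 and 4999 on Bmi1 arrays 1 to 4. Each Bmi1 array was below its partner while the groups overlapped, and the log2 difference was -0.20 (SE 0.17, limma adjusted p = 0.93, and 0.252 with the block). This signal was a near constant share of the brightest probe set of the same array, 65.5% to 70.99%, whereas the brightest Vim probe set ran from 35.4% to 61.97% and Cdh1 from 13.3% to 27.3%. Whether Fn1 was at the ceiling of the measurement was not tested. The dimmer Fn1 probe set read 286, 252, 210.3 and 183 against 441, 196, 180.4 and 167. It was higher in pair 1 and lower in the other pairs, with a log2 difference of -0.09 (SE 0.32), so the probe sets disagreed in pair 1.

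Among the tested repressors, Snai2 and Zeb2 had the lowest differences, and neither passed. Snai2, also called Slug, is the Snail family member linked to cell survival and migration. Its brighter probe set, of a class that can cross-hybridise (_x_at), read 905, 359.8, 426 and 126 on control arrays 1 to 4. Bmi1 arrays 1 to 4 read 404, 318, 279.7 and 122. Every Bmi1 array was below its partner, at ratios of 0.447 in pair 1 and 0.967 in pair 4, and the groups overlapped. The log2 difference was -0.57 (SE 0.59, limma adjusted p = 0.945). When pairs were blocked the SE was 0.19 and the adjusted p 0.177. Without control 1 it shrank to -0.10. The dimmer Snai2 probe set read 68.7, 41.9, 42.2 and 14.5 against 34.3, 40.9, 29.97 and 16.0, a log2 difference of -0.40 (SE 0.46), with control 1 again the highest array and replicate 4 the lowest in both groups.

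Zeb2, a zinc finger and homeodomain repressor, had 5 probe sets, all dim and all with a lower mean in the arrays labelled Bmi1. The brightest read 72.0, 32.3, 35.8 and 21.3 on control arrays 1 to 4 and 29.7, 31.7, 19.0 and 12.0 on Bmi1 arrays 1 to 4. It was lower in 4 of 4 pairs, at ratios of 0.413, 0.982, 0.532 and 0.564, and the groups overlapped. Its log2 difference of -0.74 (SE 0.42) did not pass in limma (adjusted p = 0.797, and 0.18 when pairs were blocked), and was -0.41 without control 1. The same direction in 4 of 4 pairs downward was seen for 15.9% of all tested genes. The other 4 probe sets gave -0.82, -0.43, -0.35 and -0.27, the last one above background on 2 of 8 arrays.

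Zeb1, the paralog of Zeb2 and a direct repressor of Cdh1, had 4 probe sets with small differences beside their errors. The brightest read 370.2, 202, 220.2 and 207 on control arrays 1 to 4 and 264, 309, 192 and 161 on Bmi1 arrays 1 to 4. Pair 2 went up and the other pairs went down, and the log2 difference was -0.18 (SE 0.29, limma adjusted p = 0.973, and 0.669 when pairs were blocked). It was 0.053 without control 1 and 0.084 with array weights. Of the other Zeb1 probe sets, the one above background on all 8 arrays differed by 0.065 (SE 0.36) and the one above it on 7 by -0.21 (SE 0.82). The last gave 0.29 (SE 0.44), but was above background on 1 control and 3 Bmi1 arrays.

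Snai1, Twist1 and Ovol2 were at or near the bottom of the measurable range. Snai1, the founding Snail factor, was above background on all 8 arrays but low, at 14.5, 36.2, 9.48 and 21.1 on control arrays 1 to 4 and 15.8, 15.0, 14.3 and 15.4 on Bmi1 arrays 1 to 4. The Bmi1 arrays lay close together (SD 0.612, n = 4) and inside the range of the controls (SD 11.6, n = 4). With all genes tested and no level filter its log2 difference was -0.30 (SE 0.37, limma adjusted p = 0.947). Twist1, a factor of mesoderm and neural crest, was above background on control 1 (39.6) and Bmi1 2 (12.5) and on no other array. These are the array with the most and the array with the third most fibroblast and stellate marker signal, 12324 and 5064. On control 2, with the second most (5780), Twist1 read 6.74, under the background of 9.44. On Bmi1 1, the partner of control 1, Twist1 read 0.27.

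Ovol2, the repressor of Zeb1 on the epithelial side, was at background on all 4 control arrays. It was just above it on Bmi1 3 (5.99 against 4.09) and Bmi1 4 (6.04 against 5.34). Its signal ran from 0.263 to 9.20 in the controls, so no fold is given for it or for Twist1.

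**Figure D3:**
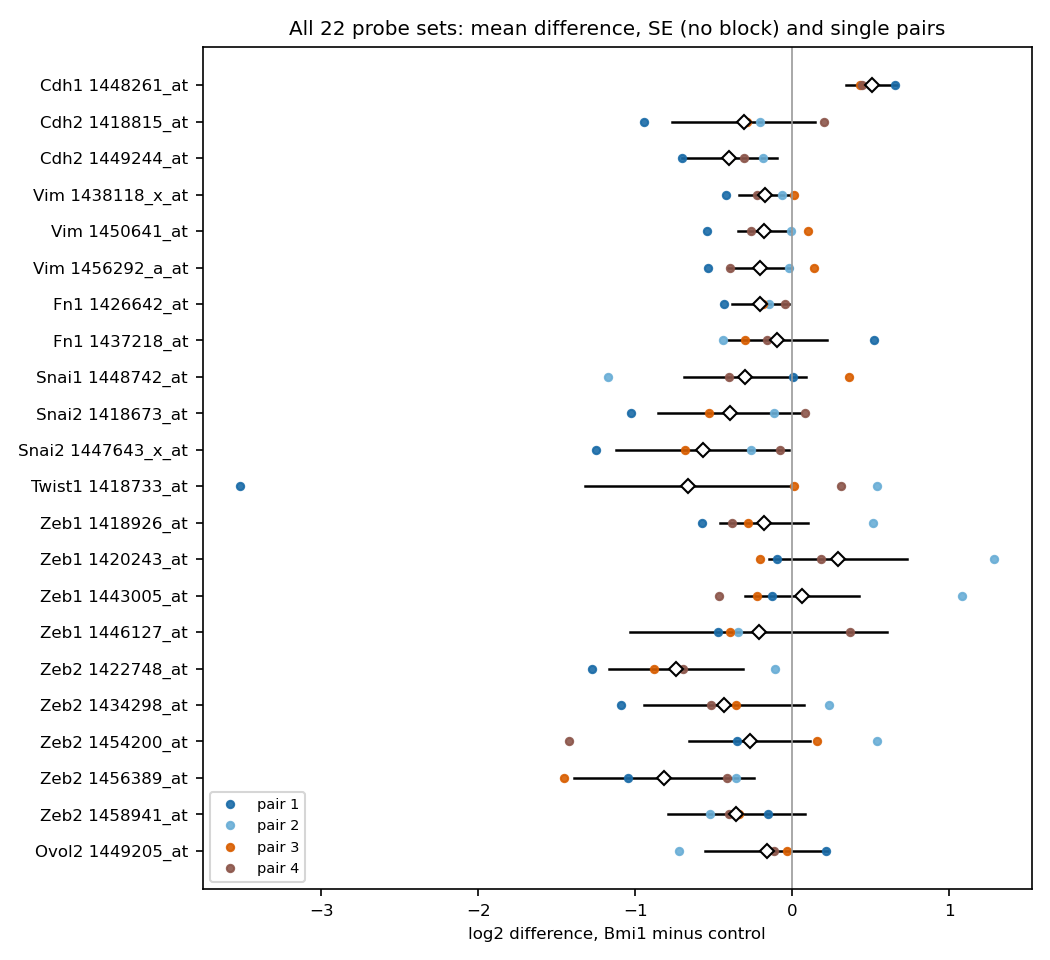
Log2 difference (Bmi1 minus control, array-centred values) for all 22 probe sets, with diamonds for the mean of 4 pairs, bars for the SE of the fit without a block, and coloured dots for single pairs. The Cdh1 dots lie together right of 0, from 0.43 to 0.65, while pair 1 is the lowest dot of both Cdh2 and both Snai2 probe sets and of Twist1.

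Control 1 was the highest of the 8 arrays for the brightest probe sets of Cdh2, Snai2, Twist1, Zeb1 and Zeb2 and the lowest for Cdh1. Its values were 1752, 905, 39.6, 370.2, 72.0 and 733 in that order. The same array carried the largest summed signal of the fibroblast and stellate markers, with Col1a2 at 3343 and Col3a1 at 2299.6, where the other arrays read 54.9 to 1290.2 and 19.2 to 353. Its ratio of 3′ to 5′ Gapdh probe signal, a sign of RNA quality, was 3.10, against 1.65 to 1.96 on the other arrays. Within pair 2, where the marker sums were close (5780 and 5064), Snai2, Zeb2 and Cdh2 signals were at ratios of 0.883, 0.982 and 0.919, with Zeb1 at 1.53 and Cdh1 at 1.499. In pair 3, with sums of 2278 and 1796, the ratios were 0.657 for Snai2, 0.532 for Zeb2, 0.868 for Cdh2, 0.872 for Zeb1 and 1.43 for Cdh1. Reln made 263 and 689 of these sums, so the other markers together fell by more than the sums did. Pair 4 had sums of 1893 and 1289, of which Reln made 57.4 and 203. Ratios there were 0.967 for Snai2, 0.564 for Zeb2, 1.18 for Cdh2, 0.779 for Zeb1 and 1.39 for Cdh1. Of the 14 markers, 8 were above background on all 8 arrays and 1, Lrat of quiescent stellate cells, was at background on all. Endothelial markers summed to 125 to 239 in the controls and 247 to 353 in the arrays labelled Bmi1, with Pecam1, Tek, Tie1 and Erg at background on all 8 arrays. This sum is mostly Egfl7, which read 68.6 to 194 in the controls and 192 to 314 in the arrays labelled Bmi1 (log2 difference 0.95, SE 0.28, limma adjusted p = 0.289, and 0.0205 when pairs were blocked). Kdr, Cdh5 and Emcn had lower means in the arrays labelled Bmi1, Cdh5 and Emcn being above background on 2 of 8 arrays each. Higher there were Stab2, at 6.95 under the control label and 10.9 under the Bmi1 label, and Lyve1, at 2.63 and 7.57. Stab2 was above background on 7 arrays and Lyve1 on 4. Macrophage and blood markers summed to 539 to 2805 and 675 to 2478. That sum is mostly Cd14 and Csf1r, while C1qa was at background on all 8 arrays and Ptprc above it on 1. Mesothelial markers summed to 2406 on control 1, to 1001 to 1528 on the other controls and to 1260.2 to 1748 in the arrays labelled Bmi1. Of these, Msln differed by -1.26 (SE 0.58, limma adjusted p = 0.681, and 0.0483 when pairs were blocked), and Wt1 by -0.89 (SE 0.30, 0.396 and 0.131), each lower in 4 of 4 pairs. Podxl went the other way, by 0.48 (SE 0.19, 0.551 and 0.196), higher in 4 of 4 pairs. Alcam, the largest part of the mesothelial sum, differed by -0.08 (SE 0.27). Of the 6 tested mesothelial markers, 1 had a higher and 5 a lower mean in the arrays labelled Bmi1. The 4 measured biliary markers, which include Epcam, summed to 1441 to 2457 in the controls and 2483 to 3085 in the arrays labelled Bmi1, narrowly without overlap. Krt7, the largest part of that sum, differed by 0.25 (SE 0.22, limma adjusted p = 0.943, and 0.4 when pairs were blocked). The groups overlapped for Krt7 and Sox9 and did not for Epcam and Krt19, beside 5.33% of all tested genes without overlap. In such bulk samples fewer cells of a type and less RNA per cell cannot be told apart, and the part of other cell types in these differences was not tested.

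**Figure D4:**
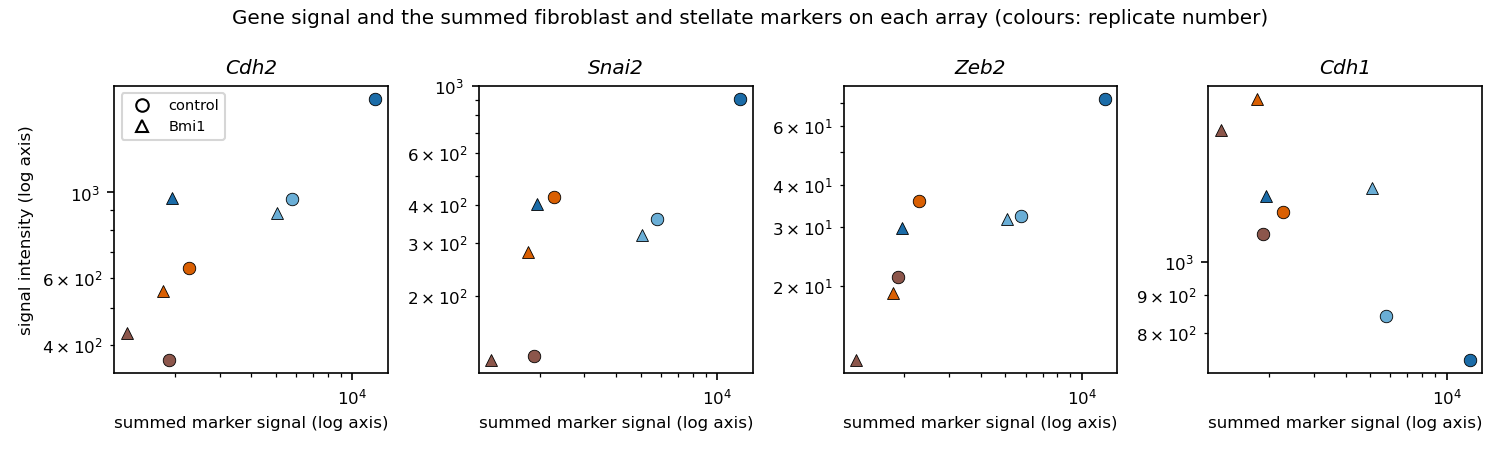
Signal of Cdh2, Snai2, Zeb2 and Cdh1 against the summed signal of 14 fibroblast and stellate markers on each of 8 arrays (both log axes; circles are control, triangles Bmi1, colours the replicate number). Control 1, at a sum of 12324, is the top point for Cdh2, Snai2 and Zeb2 and the bottom point for Cdh1.

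Of a list of 43 other epithelial genes, 32 passed the level filter, 21 with a higher mean in the arrays labelled Bmi1 and 11 with a lower one. Of all tested genes, 4988 had a higher and 5928 a lower mean. The median log2 difference of the list was 0.10. Without a block 1 passed in limma and rose, and with the replicate block 5 rose and 0 fell, beside 1.36% of all tested genes that rose and 1.96% that fell. The 5 were Spint1, St14, Epcam, Dsg2 and Ocln. St14, the membrane protease matriptase, read 25.9, 43.5, 29.6 and 64.1 on control arrays and 145, 154, 194 and 209 on Bmi1 arrays, with no overlap. Its log2 difference was 1.996 (SE 0.26), with a limma adjusted p of 0.0365, and of 0.00605 when the pairs were blocked. Without a block, leaving out any 1 array other than control 4 left 0 genes of the 3 lists called. Spint1, the inhibitor HAI-1 that holds matriptase in check, read 21.4, 16.8, 66.2 and 113 against 142, 128, 413 and 369.6, again with no overlap (2.29, SE 0.57, adjusted p = 0.21 in limma and 0.00527 with the block).

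The 3 other epithelial genes are parts of cell contacts. Epcam, a surface adhesion protein of progenitor and biliary cells, read 103, 140.3, 131 and 166 against 222, 206, 356 and 389.6. Its log2 difference was 0.99 (SE 0.23, limma adjusted p = 0.171, and 0.022 when pairs were blocked). Dsg2, a desmosomal cadherin, differed by 0.71 (SE 0.28, limma adjusted p = 0.551, and 0.0147 with the block), and Ocln, the tight junction protein occludin, by 0.70 (SE 0.27, 0.545 and 0.0222). All 5 were higher in 4 of 4 pairs, which the choice by the paired model favours. Of the 32 tested genes of the list, 9 were higher in 4 of 4 pairs and 4 were lower. The shares of all tested genes were 11.4% and 15.9%. The groups overlapped for Dsg2 and Ocln. With the block and 1 pair left out, 2 to 4 genes of the 3 lists were called in place of 6.

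Of further regulators of the epithelial state, Esrp2 differed by -0.13 (SE 0.36), Elf3 by 0.29 (SE 0.41) and Klf4 by 0.07 (SE 0.55). Klf5 differed by -0.57 (SE 0.27, limma adjusted p = 0.715, and 0.067 when pairs were blocked) and was lower in every pair. Esrp1, Grhl1, Grhl2, Grhl3 and Ovol1, which encode splicing and transcription factors, were not tested, as they fell under the level filter with 5 further genes of the list. The other 27 tested epithelial genes did not pass in either model.

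Of 32 genes of the mesenchymal list, 27 were tested. A lower mean in the arrays labelled Bmi1 was found for 25 of the 27, and for 5928 of all 10916 tested genes. The median log2 difference was -0.46, beside -0.03 for all tested genes. The medians were -1.46, -0.13, -0.26 and 0.14 in pairs 1 to 4. Without a block 0 passed in limma, against 0.165% of all tested genes, and 1 had an unadjusted p under 0.05, against 7.81% of all. With the replicate block 8 of 27 had an unadjusted p under 0.05, against 18.0% of all tested genes. There 1 was called and fell, against 1.96% of all, which was Acta2, the smooth muscle actin of myofibroblasts. Acta2 read 3013, 2969, 1237 and 1249 on control arrays 1 to 4 and 1165, 2872, 514 and 444 on Bmi1 arrays 1 to 4. It was lower in 4 of 4 pairs with overlapping groups (-1.11, SE 0.60, limma adjusted p = 0.778, and 0.0397 with the block). The mesenchymal list shares 6 genes with the fibroblast and stellate markers, Acta2 among them.

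Of 34 tested regulators and signals 0 passed in limma in either model, with 1 at an unadjusted p under 0.05 without a block and 7 with it, beside 7.81% and 18.0% of all tested genes. Of the 34, 17 had a higher and 17 a lower mean (median log2 difference 0.01). The ones with the smallest p without a block were Foxc1 and Jag1. Foxc1, a forkhead factor of mesenchyme, read 48.9, 47.7, 29.9 and 35.5 on control arrays and 8.56, 21.1, 17.0 and 19.6 on Bmi1 arrays. The groups did not overlap, and on Bmi1 1 it was at background (-1.22, SE 0.30, adjusted p = 0.206, and 0.073 with the block). Jag1, a Notch ligand, differed by 0.49 (SE 0.23, adjusted p = 0.693, and 0.22 with the block).

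**Figure D5:**
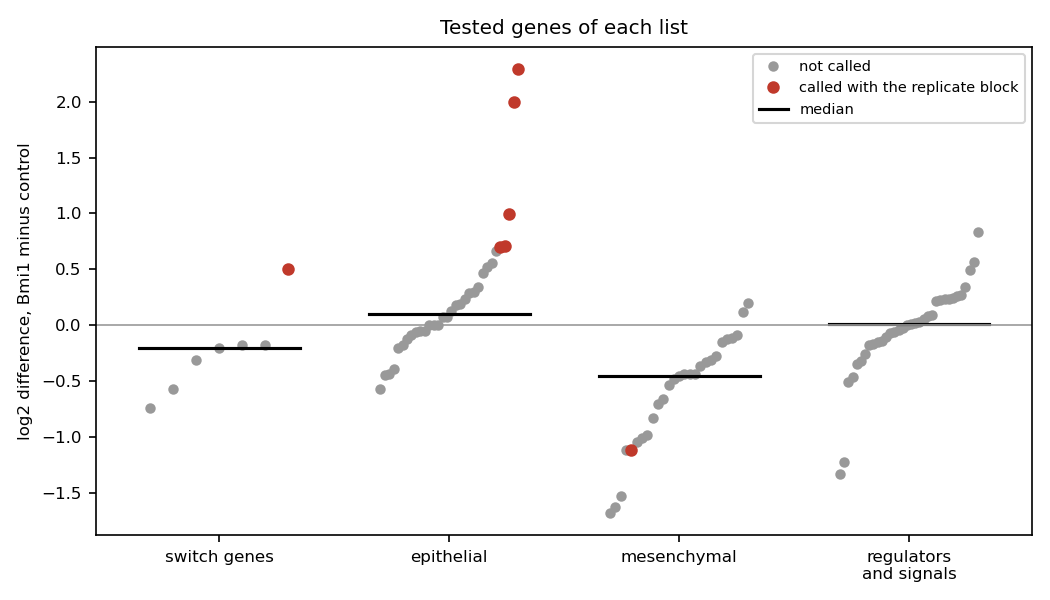
Log2 difference (Bmi1 minus control) of every tested gene of the switch genes and of 3 further lists, ordered by size within each list, with red points for genes called with the replicate block and bars for list medians. The red points are Cdh1, 5 epithelial genes from 0.70 to 2.29 and Acta2 at -1.11, and the medians are -0.20, 0.10, -0.46 and 0.01.

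Likeness of pattern was measured as the root mean square distance, over 8 arrays, between gene-centred log2 values, among 10915 other tested genes. The distance is not scaled by spread, so genes that vary little lie near each other whatever their pattern. Between members, the distance was smallest for Vim and Fn1 (0.29), followed by Zeb2 with Cdh2 (0.34) and by Snai2 with Cdh2 and Zeb1 with Zeb2 (0.36 each). For Vim and Fn1, which varied little over the arrays (SD 0.22 and 0.26), the distance exceeds the SD of either gene. A short distance there does not by itself show likeness. For Zeb2 and Cdh2 (SD 0.68 and 0.74) it lies below both. Cdh1 and Snai2 were farthest apart (1.14). The nearest other genes were Mthfsd and Dgkd for Cdh1 (0.083 and 0.095), Kmt2c and Tnrc6b for Cdh2 (0.082 and 0.13), and Zfhx4 and Dsel for Snai2 (0.26 and 0.27). For Zeb1 they were Zfp790 and Klhl20 (0.088 and 0.13), for Zeb2 Yipf6 and Mef2a (0.17 and 0.20), and for Vim Anapc13 and Maml1 (0.078 and 0.079). Fn1 lay nearest to C1qbp and Afp (0.036 and 0.042). Its signal was a near constant share of the array maximum (above), and how far this closeness reflects that was not tested. With 8 arrays that share a split by replicate number, such closeness is a description.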

How the data were processed

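Values are the probe set intensities the authors deposited, on a linear scale for 8 arrays. No label names the program behind them. Every array had a mean of 100 once the top and bottom 2% were trimmed. Biotin-labelled cRNA came from RNA equal to 10000 cells and a 2-cycle amplification, per the labels' protocols. Symbols came from the platform annotation, and of 45101 probe sets 34945 had 1 symbol, 932 several and 9160 none given here, beside 64 controls.

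Values were taken as log2(value + 3.78), which understates folds of dim genes, and arrays were centred on the median of the tested genes. Each gene entered with its probe set of highest mean log2 level. The group test was that of limma 3.58.1, run under R 4.3.3 (intensity trend, two-sided, Benjamini-Hochberg over all 10916 tested genes, or all 45037 probe sets). The scripts were tested on simulated data. The number of arrays limits the precision.

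The main model has no block. Same-numbered arrays deviated together from their group means (r = 0.53, 0.49, 0.50 and 0.68), and the series describes 4 independent experiments, so the numbers were taken to pair the arrays. Members and lists were chosen with earlier results of these data known. Named list genes are those called in either model, at most 6 a list, or else the 2 with the smallest p.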

Additional observations from a re-analysis of the deposited data

Results flagged for a closer look

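In 62 groups of 4 arrays examined, for the 22 probe sets, the named list genes and the cadherin ratio, Dixon's test singled out an array in 4 of them, and chance alone would do so in about 3 (1 in 20). Twist1 was highest on control 1, with a gap to the next array of 0.865 of the range. The brightest Zeb1 probe set was highest on control 1 (0.892). The dimmer Fn1 probe set was highest on Bmi1 1 (0.896), and Jag1 was highest on Bmi1 3 (0.848).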

How the results depend on the processing

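Over 30 other settings Cdh1 stayed higher in the arrays labelled Bmi1, with a log2 difference of 0.34 to 0.64, and passed in 5, all with a block. These were the replicate block (limma adjusted p = 0.0255), the same without a level filter, chosen after seeing the data (0.0364), without centring (0.0165), with quantile normalisation (0.018), and replicates 1 and 2 against 3 and 4 as a block (0.0311). In those settings 1 member was called in place of 0, and with centring on all probe sets the replicate block gave an adjusted p of 0.0596 and 0 members. At probe set level 1 of 22 was called with the replicate block without centring or with quantile normalisation, and 0 otherwise. Leaving out any 1 array, or any pair under the block, gave 0 members. Fn1, Vim and Snai2 stayed lower in all 30, and Zeb2 in the 29 that tested it. Cdh2 and Zeb1 were lower in 28 and higher without control 1 and with array weights, and none of these 6 passed in any setting. The cadherin ratio ran from 0.31 to 1.26 with 1 array left out. Of the other list genes, 1 was called without a block, 6 with the replicate block (6 also without centring, with quantile normalisation and without the level filter, 7 with centring on all probe sets), 3 with replicates 1 and 2 against 3 and 4 as a block, and 0 within either of these sets, with centring on all probe sets, with quantile normalisation or at the 60th percentile of level. With 1 array left out it was 0 to 1 (1 without control 4), and with the block and 1 pair left out 2 to 4. The replicate block changed no call of a member other than Cdh1. The median of all tested genes went from -0.03 to 0.11 when arrays were centred on all probe sets. Signal at background on most arrays limits what Twist1 and Ovol2 can show.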

Other observations

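Of the epithelial genes under the level filter, Ovol1 and Grhl3 were picked out after their values were seen and were not tested. Ovol1, the paralog of Ovol2, read 4.77, 7.97, 8.09 and 8.02 on control arrays 1 to 4 and 10.8, 10.7, 8.98 and 18.2 on Bmi1 arrays 1 to 4. The groups did not overlap, as was so for 3.36% of all probe sets. Ovol1 was above background on 2 control and 4 Bmi1 arrays, and backgrounds themselves ran from 4.09 to 9.97. Grhl3, a grainyhead factor of surface epithelia, read 3.09, 1.68, 5.97 and 15.4 against 14.5, 16.0, 44.7 and 31.7. It was above background on 1 control and 4 Bmi1 arrays, and higher on the Bmi1 array of each pair. Of all 10 epithelial genes under the filter, 7 had a higher and 3 a lower mean signal in the arrays labelled Bmi1. The lower ones were Esrp1 (9.77 against 2.95, above background on 3 of 8 arrays), Ap1m2 (above it on 2) and Rab25 (on 0).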
